A study of Mus musculus with 4 samples.

Results

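Trem2, Apoe, Gpnmb, Spp1, Cd9, Fabp5, Lgals3, Ctsb, Ctsd and Cd63 are 10 genes used as markers of lipid-associated macrophages, and they were followed here by symbol among the 32285 genes counted in mouse mammary tumors. Droplet-based RNA sequencing of single cells counted RNA molecules by their tags (unique molecular identifiers, UMIs) for every gene in every cell barcode. The 10 genes were described in the 20892 barcodes with at least 2000 UMIs and at most 20% mitochondrial UMIs. Macrophages were the 6216 of these barcodes in which C1qa, C1qb and C1qc, the genes of complement C1q, together took at least 10 of every 10000 UMIs. The study sequenced sorted tumor cells of mice aged 17 to 18 weeks, with a library for each mouse. The Cre- group (replicates 1 and 3) was MMTV-Cre-; Frmd8fl/fl; PyMT, the Cre+ group (replicates 2 and 4) was MMTV-Cre+; Frmd8fl/fl; PyMT, and every mouse thus carried the PyMT oncogene and floxed Frmd8 alleles, and the genotypes differed in Cre. The MMTV promoter drives Cre and PyMT in the mammary epithelium, so Cre is meant to act in the epithelium and not in macrophages.

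Lipid-associated macrophages engulf lipid and cell debris in fatty, injured or tumor tissue. TREM2 is a lipid-sensing surface receptor that signals through the adaptor TYROBP, APOE carries cholesterol out of the cell, and the cathepsins CTSB and CTSD digest engulfed protein in lysosomes, whose membranes carry the tetraspanin CD63. GPNMB is a glycoprotein of lysosomes and the cell surface, SPP1 (osteopontin) is a secreted ligand of integrins and CD44, FABP5 is a fatty acid carrier in the cytoplasm, LGALS3 is a galectin that gathers at damaged lysosomes, and CD9 is a tetraspanin of the surface and of exosomes. Several of these genes are also used by epithelial and stromal cells, and SPP1 is a known product of mammary tumor epithelium.

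The promoters of Trem2, Ctsd, Gpnmb and Spp1 are shown because of correlations over macrophages. These genes are in the leading pairs of 2 overlapping sets drawn from them below. Ctsb, which is in the strongest pair, had no promoter entry. Sequences are from RefSeq on GRCm38.p6, from 250 bases before to 20 bases after the annotated start, at chr17:48346151-48346420 on the plus strand for Trem2, chr7:142387808-142388077 on the minus strand for Ctsd, chr6:49036268-49036537 on the plus strand for Gpnmb and chr5:104434861-104435130 on the plus strand for Spp1 (1 of its 2 entries). Capitals mark CACGTG, the core of the motif bound by the MITF and TFEB family of lysosomal gene regulators, and TGACTCA, a motif of AP-1.
Trem2: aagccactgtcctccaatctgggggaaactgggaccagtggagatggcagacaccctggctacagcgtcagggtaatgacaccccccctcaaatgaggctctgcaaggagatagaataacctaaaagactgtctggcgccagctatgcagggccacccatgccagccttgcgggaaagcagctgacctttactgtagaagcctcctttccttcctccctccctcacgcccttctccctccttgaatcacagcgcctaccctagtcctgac
Ctsd: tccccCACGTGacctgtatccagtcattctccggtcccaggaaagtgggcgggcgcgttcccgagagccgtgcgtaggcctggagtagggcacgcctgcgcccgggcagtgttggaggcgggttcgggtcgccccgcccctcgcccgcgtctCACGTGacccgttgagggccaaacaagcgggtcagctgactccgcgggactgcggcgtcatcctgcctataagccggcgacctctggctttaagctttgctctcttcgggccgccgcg
Gpnmb: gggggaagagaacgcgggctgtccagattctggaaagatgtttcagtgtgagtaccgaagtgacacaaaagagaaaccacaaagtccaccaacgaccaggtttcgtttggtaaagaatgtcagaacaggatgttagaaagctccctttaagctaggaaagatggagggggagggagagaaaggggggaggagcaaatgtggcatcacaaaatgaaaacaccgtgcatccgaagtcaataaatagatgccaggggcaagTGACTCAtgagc
Spp1: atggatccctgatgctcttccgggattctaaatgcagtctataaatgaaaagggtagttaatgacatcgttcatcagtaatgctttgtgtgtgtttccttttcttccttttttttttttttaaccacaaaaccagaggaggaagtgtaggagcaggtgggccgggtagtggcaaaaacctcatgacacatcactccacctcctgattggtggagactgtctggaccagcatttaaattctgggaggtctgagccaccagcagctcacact
CACGTG stood at 245 and 98 bases before the start of Ctsd, and TGACTCA at base 9 after the start of Gpnmb. Both strands were searched over windows of 300 bases, and CACGTG was held by 7.15% and TGACTCA by 5.20% of all 32851 promoter windows. Of the 10 genes, 8 had a promoter entry (11 entries in all), and the entries other than those of Ctsd and Gpnmb held neither run of letters. Fabp5 and Ctsb had no entry. A match describes letters in these windows and not a bound site.

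The 4 libraries held 112729231 to 157662955 deposited UMIs, and 4501 to 6054 barcodes per library were kept. Frmd8, the deleted gene, was counted in epithelial cells at 24.1 and 24.2 CPM (UMIs of a gene for every 1000000 UMIs of the class) in the Cre- tumors and at 5.60 and 10.7 CPM in the Cre+ tumors. In macrophages Frmd8 was at 25.8 and 23.5 CPM in the Cre- tumors and at 18.1 and 13.4 CPM in the Cre+ tumors. It was thus lower in both Cre+ tumors in macrophages too, as were 21% of the 14117 genes tested there. In epithelial cells 15.6% of the 16204 genes tested were lower in both Cre+ tumors. The loxP sites flank exons 4 to 6, so counts at the 3′ end of Frmd8 need not be lost. The macrophage genes Cd68, Csf1r, Adgre1, Fcgr1 and Lyz2, used as a check, were all higher in macrophages than in every other class in all 4 libraries. C1q had a median of 116 to 148 UMIs per 10000 in macrophages and of at most 0.278 in other barcodes, with 42 to 121 barcodes per library just under the limit (5 to 10) and 40 to 154 just over it (10 to 20). Libraries held 931, 1514, 1661 and 2110 macrophages in the order of replicates 1 to 4. Of these macrophages, 62, 89, 363 and 114 also passed the gate of another cell class, and Cre- replicate 3 stood apart with 21.9%, 301 of its 363 through epithelial genes. Between 8 and 14 barcode sequences were shared by pairs of libraries.

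Macrophages were 26.4% ± 8.07 (SD, n = 2) of kept barcodes in Cre- tumors and 32.1% ± 3.91 (SD, n = 2) in Cre+ tumors, a difference of 5.69 percentage points (two-sided exact permutation test, p = 0.667, where 2 against 2 mice cannot go below 0.33). This share depends on the sort and on the UMI minimum. The levels below are in CPM, summed over the macrophages of a library, with n = 2 mice per genotype, and they are not compared between genes. A pair of values is given as replicate 1 then 3 for Cre- tumors and as replicate 2 then 4 for Cre+ tumors.

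Trem2 (ENSMUSG00000023992), the lipid receptor, was counted in macrophages at 655 and 540 CPM in Cre- tumors and at 494 and 424 CPM in Cre+ tumors. The genotypes did not overlap, but the spread over all 4 mice was only 1.54-fold. Apoe (ENSMUSG00000002985), the cholesterol carrier, took 20580 and 20973 CPM in Cre- tumors and 30088 and 15832 CPM in Cre+ tumors. The Cre+ tumors lay on either side of the Cre- tumors, so the genotypes overlapped.

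Ctsb (ENSMUSG00000021939), a cysteine protease of lysosomes, stood at 4280 and 3143 CPM in Cre- tumors and 3734 and 2496 CPM in Cre+ tumors. Ctsd (ENSMUSG00000007891), the aspartic protease of the same compartment, stood at 4109 and 2256 CPM in Cre- tumors and 2378 and 1557 CPM in Cre+ tumors. For both proteases Cre- replicate 1 was the highest and Cre+ replicate 4 the lowest library, and the middle pair crossed the genotypes. Cd63 (ENSMUSG00000025351) was the steadiest of the 10 genes, with 1534 and 1292 CPM in Cre- tumors and 1429 and 1369 CPM in Cre+ tumors, a 1.19-fold range.

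Gpnmb (ENSMUSG00000029816) and Spp1 varied most between mice. Gpnmb was at 248 and 26.5 CPM in Cre- tumors and 128 and 17.4 CPM in Cre+ tumors, a 14.3-fold range in which each genotype had a high and a low tumor. Spp1 (ENSMUSG00000029304) was at 5559 and 1675 CPM in Cre- tumors and 1403 and 523 CPM in Cre+ tumors, a 10.6-fold range with both Cre+ tumors below both Cre- tumors. Without the macrophages that passed another gate, Spp1 was at 5776 and 1524 CPM in Cre- tumors and 1529 and 571 CPM in Cre+ tumors. The genotypes then overlapped, by a narrow margin between Cre- replicate 3 and Cre+ replicate 2.

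Fabp5 (ENSMUSG00000027533), the fatty acid carrier, was at 1048 and 611 CPM in Cre- tumors and 408 and 301 CPM in Cre+ tumors. Cd9 (ENSMUSG00000030342) was at 346 and 308 CPM in Cre- tumors and 182 and 235 CPM in Cre+ tumors. Both genes kept Cre+ below Cre- without the macrophages that passed another gate, with 1080 and 531 CPM of Fabp5 in Cre- tumors against 431 and 287 in Cre+ tumors. Lgals3 (ENSMUSG00000050335), the galectin, was at 1914 and 1594 CPM in Cre- tumors and 1247 and 2323 CPM in Cre+ tumors, so Cre+ replicate 4 was the highest library for Lgals3 although it was the lowest for Trem2, Apoe, Gpnmb, Spp1, Fabp5, Ctsb and Ctsd.

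**Figure D1:**
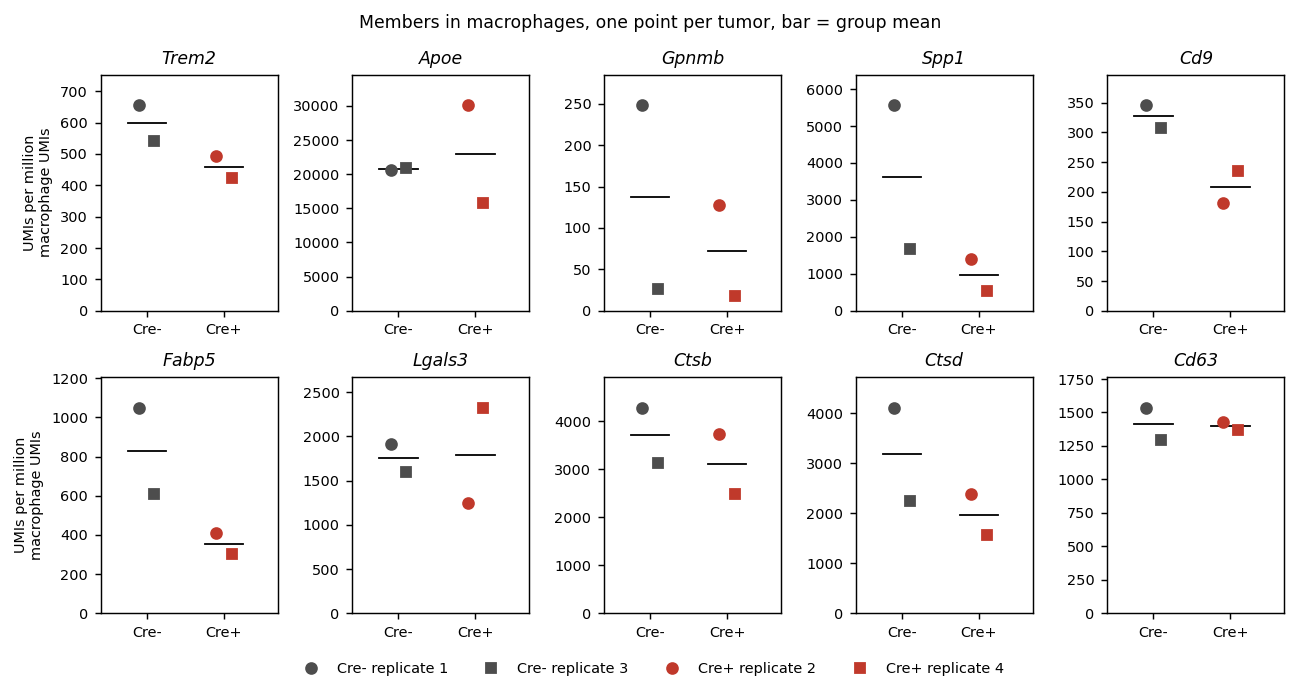
Level of each of the 10 genes in macrophages, in CPM, with 1 point per tumor (circles, replicates 1 and 2; squares, replicates 3 and 4) and a bar at the mean of each genotype. Trem2, Spp1, Cd9 and Fabp5 have both Cre+ points below both Cre- points, and Gpnmb has a high and a low tumor in each genotype.

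The question of the genotype comparison was whether macrophages differ between tumors with and without Cre in the epithelium. Both Cre+ tumors lay below both Cre- tumors for 4 of the 10 genes (Trem2, Spp1, Cd9 and Fabp5) and above them for none, where 21% of all 14117 genes tested lay below and 5.89% above. No gene of the 10 passed the quasi-likelihood test of edgeR on summed counts (adjusted by Benjamini-Hochberg across the whole table), and none of the 14117 genes did. At an unadjusted p under 0.05 there were 364 genes, of which Fabp5 was the only one of the 10, and DESeq2 called 20 genes, none of them among the 10. The log2 fold change of Fabp5, Cre+ against Cre-, was -1.10 (SE 0.33, adjusted p = 1.00 by edgeR), and that of Spp1 was -1.80 (SE 0.73, adjusted p = 1.00 by edgeR). The values of the other genes were -0.25 (SE 0.22) for Trem2, 0.25 (SE 0.42) for Apoe, -0.84 (SE 1.26) for Gpnmb, -0.50 (SE 0.26) for Cd9, 0.19 (SE 0.43) for Lgals3, -0.13 (SE 0.32) for Ctsb, -0.57 (SE 0.39) for Ctsd and 0.12 (SE 0.25) for Cd63. The median of the 10 was -0.37 and that of all genes 0.03, but the median of the 10 was -0.0016 without Cre- replicate 1 and -0.10 under upper limits on the genes and UMIs of a barcode.

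This outcome turned on single mice. Without Cre+ replicate 2, edgeR called 2101 genes (957 higher and 1144 lower), with Spp1 at -2.59 (adjusted p = 0.0174) and Fabp5 at -1.26 (adjusted p = 0.0186), but Cre+ replicate 4 was then the sole Cre+ tumor and was assumed to vary like the Cre- pair. Without Cre+ replicate 4, 149 genes were called and none was among the 10. Replicate 4 was also processed with another version of Cell Ranger and deposited with all barcodes, so these features and this mouse cannot be told apart.

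The share of macrophages with a UMI was compared after thinning each barcode to 2000 UMIs, since the median depth of macrophages ran from 12073 to 19234 UMIs. T cells, which should lack Trem2, Apoe and Gpnmb and had a median depth of 5763 to 11812.5 UMIs, gave the background for these genes. T cells were planned as the background for Spp1 too, but activated T cells are known to make SPP1. For Spp1 their share is therefore set beside that of macrophages and is no gene-free background. Whether the T cells here make Spp1 was not tested. Trem2 was detected in 42.5%, 46.4%, 45.8% and 49.2% of macrophages in replicates 1 to 4 and in 0% to 2.49% of T cells (unthinned, 72.4% to 85.0% of macrophages). The share of Trem2 was higher in Cre+ tumors while its CPM was lower, so no order of the genotypes was read from it. Apoe was detected in 95.8% to 98.9% of macrophages and in 15.2% to 32.0% of T cells. Spp1 was detected in 31.3% and 42.3% of macrophages of Cre- replicates 1 and 3 and in 17.1% and 14.6% of those of Cre+ replicates 2 and 4, against 12.8% and 17.5% of T cells in the Cre- tumors and 7.88% and 6.30% in the Cre+ tumors. The share of Spp1 thus moved in the same direction in macrophages, by -20.9 points, and in T cells, by -8.03 points (two-sided exact permutation tests, p = 0.33 each, the smallest possible with 2 against 2). It also moved that way in fibroblasts (-16.1 points) and granulocytes (-7.49 points), without overlap of the genotypes. In epithelial cells (-17.0 points) and endothelial cells (-2.24 points) it moved that way with overlap. How many of all genes separate the genotypes by such shares was not counted, so the separation is not read as particular to Spp1. In droplets of Cre+ replicate 4 with up to 100 UMIs, which hold free RNA, Spp1 was at 395 CPM and Apoe at 8646 CPM, and the part of free RNA in these shares was not tested. Fabp5 was detected in 29.6% and 40.4% of Cre- and in 21.5% and 18.3% of Cre+ macrophages (difference -15.1 points, exact permutation p = 0.33). The macrophage share of Ctsd was also lower in both Cre+ tumors (-4.14 points), while those of Apoe (2.05 points) and Cd63 (3.72 points) were higher. Gpnmb was rare, in 6.66%, 2.44%, 1.51% and 1.09% of macrophages of replicates 1 to 4 and in 0% to 0.830% of T cells. In fibroblasts the share was 2.22% to 8.97%. Its mean in Cre- tumors was 3.06% in fibroblasts and 4.08% in macrophages. In Cre+ tumors fibroblasts were higher, with a mean of 6.35% against 1.77% in macrophages.

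The 10 genes were spread over macrophages in different ways. The 10% of macrophages with most UMIs per 10000 of a gene held 22.9% to 26.6% of the UMIs of Ctsb, 19.7% to 29.2% of those of Cd63, 23.6% to 35.9% of those of Apoe and 28.6% to 51.5% of those of Trem2. It was 31.3% to 50.3% for Lgals3, 35.2% to 59.4% for Cd9 and 41.5% to 59.1% for Ctsd. The same 10% held 63.4% to 82.6% of the UMIs of Fabp5, 74.6% to 97.4% of those of Spp1 and 99.8% to 100% of those of Gpnmb. By this measure Ctsb, Cd63 and Apoe had the lowest shares, and Fabp5, Spp1 and Gpnmb the highest. The value of Gpnmb follows from its rarity. Its 90th percentile over macrophages was 0 in replicates 2, 3 and 4, so the top 10% had to hold all of its UMIs there. Counts were not thinned here and the measure was not adjusted for the level of a gene, so the order can also reflect level. A macrophage thinned to 2000 UMIs held a median of 5 or 6 of the 10 genes, an epithelial cell 3 or 4 and a T cell 1. All 10 were found together in 26, 13, 7 and 6 macrophages of replicates 1 to 4, which is 2.79%, 0.859%, 0.421% and 0.284% of them.

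Detection of a gene pair in the same macrophage was set against the product of the single shares. Of the 45 pairs, 32 were found together more often than the product in all 4 libraries. Another 1 (Cd9 with Ctsb) was found together less often in all 4, and 12 were mixed. Pairs of other genes were not set against their product, so whether 32 of 45 exceeds the usual share was not tested. Some of the 32 were barely above the product, such as Apoe with Ctsd at a median of 1.0009 times. By this ratio, pairs with Gpnmb stood furthest above the product: Gpnmb with Spp1 was 1.61 to 5.66 times as frequent (median 4.0), Gpnmb with Fabp5 2.08 to 4.14 times and Gpnmb with Cd9 1.72 to 2.94 times. The ratio cannot exceed the inverse of the larger single share, so only pairs of rarely detected genes can reach high values. The correlation of the 2 detections over cells gave another order. Its median was 0.24 for Gpnmb with Spp1, 0.23 for Apoe with Cd63, 0.19 for Trem2 with Ctsd and for Gpnmb with Fabp5, and 0.11 for Gpnmb with Cd9. In Cre- replicate 1, 96.8% of macrophages with a Gpnmb UMI also had a Spp1 UMI, compared with 26.6% of those without Gpnmb. The same pair of shares was 68.0% and 41.9% in the other Cre- tumor, and in Cre+ tumors it was 83.8% and 15.4% (replicate 2) and 82.6% and 13.8% (replicate 4), and the excess was smallest in the library with most macrophages that passed another gate, whose part in it was not tested. Spp1 with Cd9 stood at 1.39 to 1.72 times and Spp1 with Fabp5 at 1.35 to 1.67 times the product. Pairs with Apoe could not stand far above the product, since nearly every macrophage had Apoe, and Trem2 with Apoe stood at 1.01 to 1.03 times.

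Over single macrophages of a library, log-normalized levels of the 10 genes fell into 2 loosely linked sets, which were drawn after the values were seen and carry no test. Correlations over cells share library and depth and are given as description. Trem2, Apoe, Ctsb, Ctsd and Cd63 had 10 pairs with a Pearson r, averaged over the 4 libraries, of 0.29 to 0.67 (median 0.43), led by Ctsb with Ctsd at 0.67 (0.65 to 0.70 over libraries) and Trem2 with Ctsd at 0.53 (0.50 to 0.58). Gpnmb, Spp1, Fabp5 and Cd9 had 6 pairs of 0.24 to 0.47 (median 0.40), led by Gpnmb with Spp1 at 0.47 (0.23 to 0.68). The 20 pairs between the sets ran from -0.03 to 0.33 (median 0.16), and Apoe with Spp1 was at 0.06. Lgals3 was nearest to Cd63 (0.33) and Trem2 (0.28). Without macrophages that passed another gate the 3 medians were 0.39, 0.41 and 0.21. Pairs between the sets then reached 0.38, above the lowest pairs within the sets (0.26 and 0.23). The ranges already overlapped over all macrophages (0.33 against 0.29 and 0.24). They did so too with at least 10000 UMIs (0.42 against 0.28 and 0.27). The sets were thus not cleanly separated in any of these settings. Genes other than the 10 whose levels were most like Trem2, among 7801 genes over 4 libraries, were Cd68 (mean r 0.47), Lyz2 (0.46), Fcrls (0.44), Ftl1 (0.44) and Cyba (0.42). Those most like Gpnmb were Adam8 (0.37), Clec4d (0.29), Syngr1 (0.28), Fam20c (0.27) and Capg (0.25), and those most like Spp1 were Adam8 (0.32), Capg (0.29), Clec4d (0.29), Syngr1 (0.28) and Lgals1 (0.27), so 4 names stood in both lists. Gpnmb and Spp1 were themselves correlated over these cells (0.47), so shared names are no independent result. Over libraries, Spp1 with Adam8 ran from 0.08 to 0.54 and Spp1 with Clec4d from 0.06 to 0.45.

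**Figure D2:**
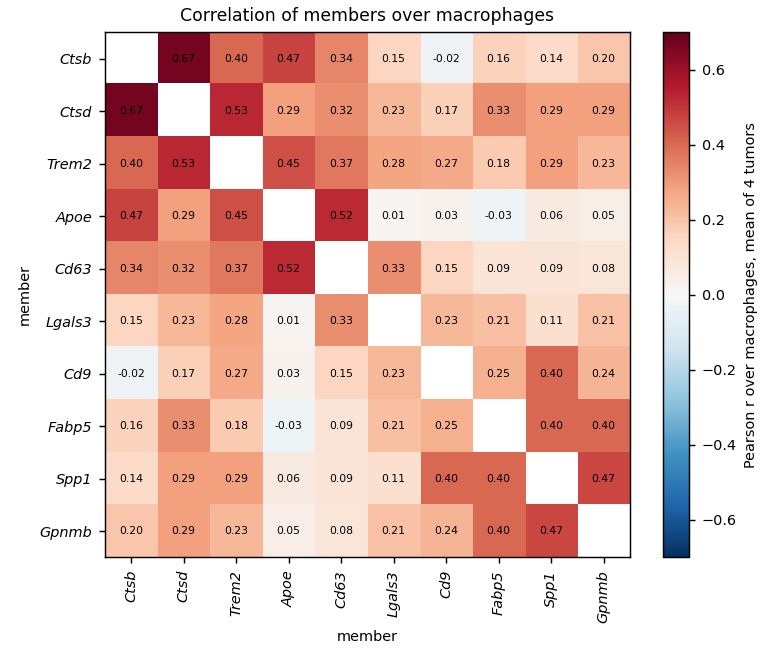
Pearson correlation of log-normalized levels over macrophages for each pair of the 10 genes, as the mean of 4 tumors, from blue (negative) to red (positive). Ctsb with Ctsd is the strongest pair at 0.67, Gpnmb with Spp1 reaches 0.47, and Apoe is near 0 with Gpnmb, Spp1, Fabp5 and Cd9.

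To describe the macrophages with Gpnmb, barcodes of at least 4000 UMIs were split by a Gpnmb UMI in a random draw of 2000 of their UMIs, and levels were taken from the UMIs left over. There were 60, 25, 24 and 20 macrophages with Gpnmb in replicates 1 to 4, so these values rest on few cells. Their Spp1 was at 27996, 23472, 10773 and 16513 CPM in replicates 1 to 4, compared with 2352, 430, 1511 and 313 CPM in macrophages without Gpnmb, a ratio of 7.13 to 54.6. Fabp5 stood at 9.78 to 24.0 times, Ctsd at 2.99 to 7.05 times, Trem2 at 2.05 to 4.55 times, Cd9 at 1.71 to 3.92 times, Lgals3 at 1.80 to 3.90 times and Ctsb at 2.11 to 2.70 times the level of the other macrophages. Cd63 stood at 1.27 to 1.53 times. Apoe was at 0.948 to 1.52 times, with Cre+ replicate 4 the library below 1.

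Antigen presentation genes went the other way. H2-Aa, which encodes a chain of MHC class II, was at 245, 518, 818 and 898 CPM in macrophages with Gpnmb of replicates 1 to 4 and at 4800, 7215, 4168 and 3860 CPM in those without, 0.0510 to 0.233 times. Cd74, the invariant chain that guards MHC class II, was at 0.0476 to 0.226 times. Mrc1, the mannose receptor of tissue macrophages, was at 0.0987 to 0.766 times, and Folr2, another gene of tissue-resident macrophages, lay on both sides of 1 (0.351 to 1.85). Mmp12, an elastase of macrophages, was higher with Gpnmb in 3 libraries (6.33 to 14.6 times) and lower in Cre- replicate 1 (0.501 times). The ratios of Spp1, Fabp5, H2-Aa and Cd74 had the same direction in all 4 libraries without macrophages that passed another gate and with at least 10000 UMIs.

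Macrophages with Spp1, of which there were 256, 207, 537 and 266, had more Fabp5, Ctsd, Cd9 and Trem2 and less Cd74 in all 4 libraries, while Mrc1 was above 1 in Cre+ replicate 4 (1.93 times) and below 1 in the others. In them Fabp5 stood at 2.71 to 9.38 times, Ctsd at 1.71 to 3.53 times, Cd9 at 1.73 to 3.12 times and Trem2 at 1.61 to 3.17 times the level of macrophages without Spp1, while Cd74 stood at 0.242 to 0.640 times. Cre- replicate 3 had the lowest ratio for Fabp5 and Ctsd and Cre+ replicate 4 for Cd9 and Trem2. Macrophages split by Lgals3 differed from this: Cd74 was at 1.08 to 1.22 times and Mrc1 at 0.396 to 0.621 times in those with Lgals3. Macrophages with Cd9 had Mrc1 at 0.286 to 0.428 times and Lyve1, a hyaluronan receptor of perivascular macrophages, at 0.0594 to 0.125 times. Over the 6 genes used to split macrophages (Gpnmb, Spp1, Trem2, Cd9, Fabp5 and Lgals3), the ratio of Mrc1 was below 1 in all 4 libraries for Gpnmb, Cd9, Lgals3 and Fabp5, and that of Cd74 for every gene but Lgals3.

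**Figure D3:**
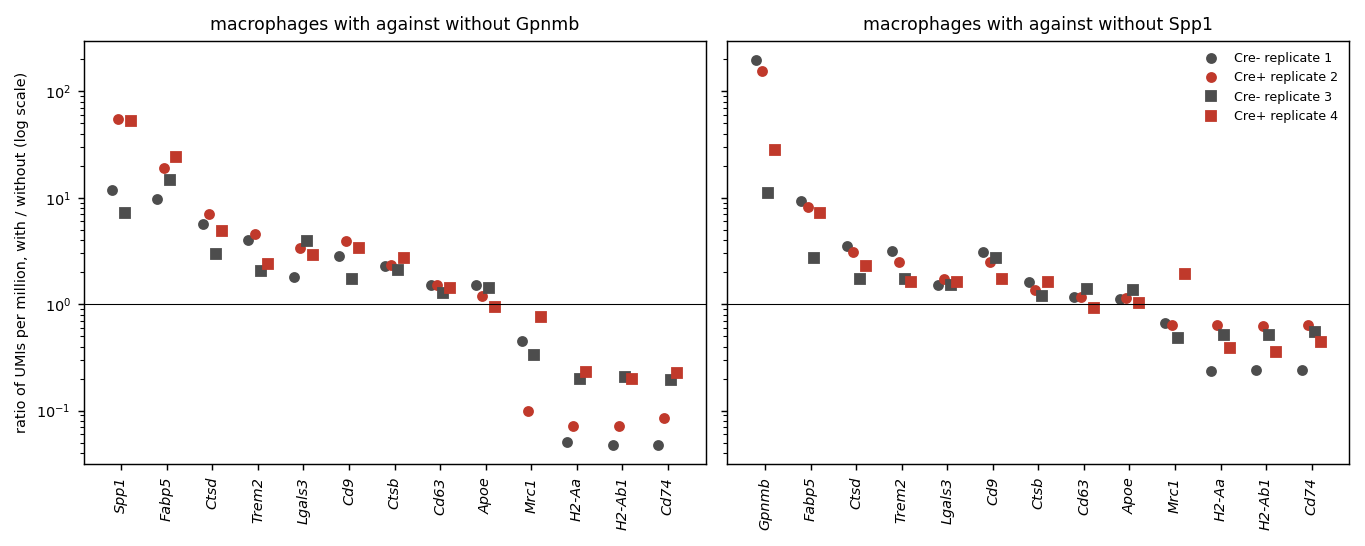
Ratio of the level (CPM, log scale) in macrophages with against those without a UMI of Gpnmb (left) or Spp1 (right), with 1 point per tumor and a line at 1. In the left panel Spp1 and Fabp5 stand highest, Apoe lies at 0.948 to 1.52 times and Cd63 at 1.27 to 1.53 times. H2-Aa, H2-Ab1 and Cd74 lie below 1 in all 4 tumors in both panels.

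The next question was where the 10 genes were expressed outside macrophages. Sums of epithelial cells, fibroblasts, endothelial cells, T cells and granulocytes were compared with macrophages in 1 edgeR model of genotype and class. Sums of the same mouse were treated as independent in this model, and a fit with the mouse as a block is given below. Barcodes without a gate but with at least 20 Lyz2 UMIs per 10000 are listed as Lyz2 barcodes and were not tested. Values are means ± SD over 4 mice.

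Trem2 and Apoe were far higher in macrophages than in the 5 classes tested. Trem2 was at 528 CPM ± 97.0 (SD, n = 4) in macrophages, 161 ± 78.9 in Lyz2 barcodes and at most 5.50 on average in the classes tested, and the first 3 ranks did not overlap. Apoe was at 21868 CPM ± 5957 in macrophages, 3733 ± 567 in Lyz2 barcodes and 85.9 to 386 on average elsewhere, again without overlap of the first 3 ranks. B cells, which numbered 11 to 82 per library and were not tested, held Apoe at 184 to 1376 CPM. Compared with epithelial cells, Trem2 was 8.16 log2 units higher (SE 0.28, adjusted p = 1.68e-15) and Apoe 8.29 (SE 0.40, adjusted p = 1.65e-13) by edgeR. The residual Trem2 and Apoe of epithelial cells were above the ratio to C1q that they had in macrophages in every library. The observed level was 1.28 to 2.26 times for Trem2 and 1.31 to 2.03 times for Apoe what the C1q UMIs of epithelial cells would carry, and its source was not tested. In T cells these ratios were 1.03 to 1.78 and 1.04 to 2.39.

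The cathepsins were present in all classes and highest in macrophages. Ctsb was at 3413 CPM ± 768 in macrophages and 125 to 705 in the gated classes, and Ctsd at 2575 ± 1084 and 176 to 905, and for both genes the macrophages of every mouse were above those classes. Cd63 was at 1459 CPM ± 149 in fibroblasts and 1406 ± 102 in macrophages, which overlapped, with a log2 difference of 0.07 (SE 0.27, adjusted p = 0.839), and it was lowest in T cells (20.6 ± 12.1). Lgals3 was highest in Lyz2 barcodes (2032 CPM ± 277) and macrophages (1769 ± 459), and the macrophages were above granulocytes (622 ± 411), T cells (335 ± 146) and epithelial cells (192 ± 122) in every mouse. Gpnmb was at 153 CPM ± 227 in Lyz2 barcodes and 105 ± 108 in macrophages, followed by granulocytes (36.5 ± 50.7) and fibroblasts. In fibroblasts Gpnmb stood at 9.56, 13.8, 16.7 and 40.8 CPM in replicates 1 to 4, which was 19.3 to 918 times what their C1q UMIs would carry, whereas epithelial cells had 0.335 to 1.12 CPM. Macrophages were above fibroblasts in replicates 1, 2 and 3, and below them in Cre+ replicate 4 (17.4 against 40.8 CPM). Endothelial cells of replicates 2, 3 and 4 had 0 Gpnmb UMIs, with an upper 95% limit by counting of 1.12 to 3.92 CPM.

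Cd9 was higher in several classes than in macrophages, and Fabp5 was not separated between macrophages and epithelial cells. Cd9 was highest in granulocytes (973 CPM ± 236), epithelial cells (748 ± 162) and endothelial cells (606 ± 75.7), whose ranges overlapped in that order, endothelial cells lay above fibroblasts (384 ± 34.5) without overlap, and macrophages (267 ± 73.6) lay below fibroblasts in every mouse. Compared with macrophages, Cd9 differed by -1.24 on the log2 scale against epithelial cells (SE 0.32, adjusted p = 0.00211 by edgeR) and by -1.95 against granulocytes (SE 0.33, adjusted p = 4.97e-05 by edgeR), where a negative value is lower in macrophages. Fabp5 was at 721 CPM ± 688 in epithelial cells and 592 ± 330 in macrophages, a log2 difference of -0.03 (SE 0.58, adjusted p = 0.965 by edgeR). In epithelial cells Fabp5 stood at 1747 CPM in Cre- replicate 3 and at 325, 331 and 480 CPM in replicates 1, 2 and 4, so 1 tumor stood far above the other 3. Macrophages were above epithelial cells in replicates 1 and 2 and below them in replicates 3 and 4. Fabp5 was higher in macrophages than in endothelial cells by 2.80 (adjusted p = 0.000812 by edgeR) and than in T cells by 3.19 (adjusted p = 0.000291 by edgeR).

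**Figure D4:**
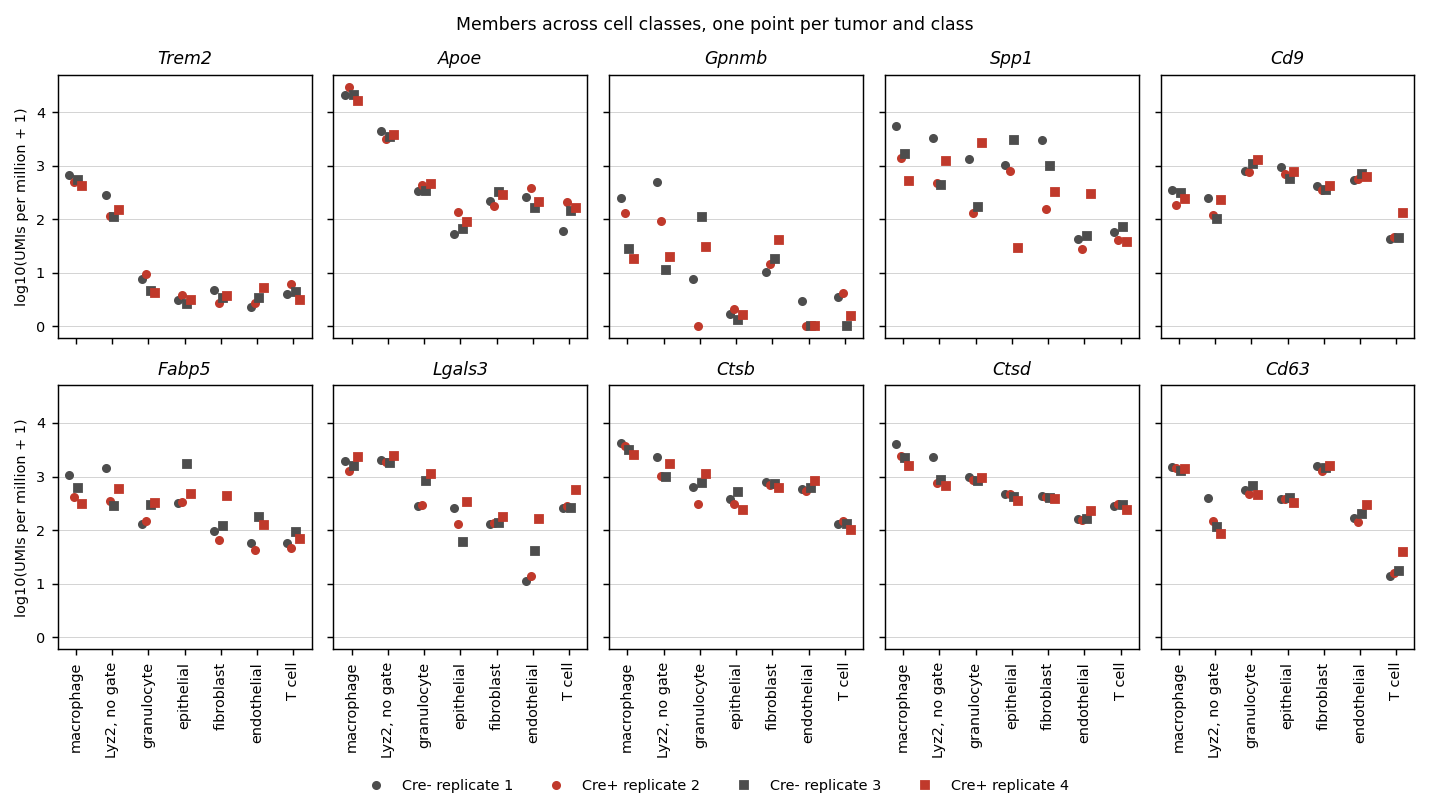
Level of each of the 10 genes in 7 groups of barcodes, as log10 of CPM plus 1, with 1 point per tumor and group. Trem2 and Apoe drop steeply outside macrophages and Lyz2 barcodes, Cd9 is lower in macrophages than in granulocytes and epithelial cells, and the points of Spp1 spread widely within epithelial cells, fibroblasts and granulocytes.

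In the counts of calls, 7 of the 10 genes were higher in macrophages than in epithelial cells, where 29.1% of 13530 genes were, and Cd9 was lower, where 29.4% were. Against fibroblasts 7 were higher (background 29.9%) and none lower (28.6%), against endothelial cells 9 were higher (28.2%) and Cd9 lower (24.2%), and against T cells all 10 were higher (29%) and so none lower (22.1%). Against granulocytes 5 were higher (26.9%), namely Trem2, Apoe, Ctsb, Ctsd and Cd63, and Cd9 was lower (17.4%). The median log2 difference of the 10 was 3.15 against epithelial cells (all genes -0.04), 2.45 against fibroblasts (0.08), 4.19 against endothelial cells (0.11), 5.10 against T cells (0.12) and 1.40 against granulocytes (0.45). The 10 are used as macrophage markers, so these counts and medians are description and no test of the set. The calls of Gpnmb (2.51, SE 0.74, adjusted p = 0.00567) and Fabp5 (1.76, SE 0.62, adjusted p = 0.0183) against fibroblasts by edgeR were lost without Cre- replicate 1 (adjusted p = 0.152 and 0.146), and that of Gpnmb also without Cre+ replicate 2 (adjusted p = 0.0678) and by DESeq2 (adjusted p = 0.0674). Upper limits on genes and UMIs ended both, with Gpnmb at 0.29 (adjusted p = 0.726 by edgeR) and Fabp5 at 0.99 (adjusted p = 0.151 by edgeR). The call of Cd9 against endothelial cells (-0.92, adjusted p = 0.0192) was lost without Cre+ replicate 2 or Cre- replicate 3, and that of Spp1 (4.28, adjusted p = 0.00517) without Cre- replicate 1. With the mouse as a block, Fabp5 (1.6, adjusted p = 0.0135) and Lgals3 (1.57, adjusted p = 0.0129) were also called higher in macrophages than in granulocytes, which numbered 27 to 187 per library. Against fibroblasts, 51.1% of called genes were higher in macrophages by edgeR and 40.9% by DESeq2.

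Spp1 was counted in several classes outside macrophages. It was at 2290 CPM ± 2234 in macrophages, 1366 ± 1369 in Lyz2 barcodes, 1218 ± 1277 in epithelial cells, 1105 ± 1285 in fibroblasts and 1067 ± 1186 in granulocytes, and none of these neighbours was separated. In granulocytes 1 barcode held 98.3% of the Spp1 UMIs of the class in Cre+ replicate 4, and 1 held 85.5% in Cre- replicate 1. The granulocytes of replicates 2 and 3 held 15 and 48 Spp1 UMIs. In fibroblasts 17, 4, 11 and 3 cells of replicates 1 to 4 held 89.4%, 76.6%, 78.9% and 75.5% of those of the class. Macrophages exceeded epithelial cells by 1.21 log2 units (SE 1.03, adjusted p = 0.326 by edgeR), and the order changed from mouse to mouse: Spp1 of epithelial cells was at 1024 and 3023 CPM in Cre- tumors and at 798 and 28.1 CPM in Cre+ tumors. Epithelial Spp1 was above macrophage Spp1 in Cre- replicate 3, and below it in the others. The epithelial level was 19.3 to 751 times what the C1q UMIs of epithelial cells would carry, compared with 3.99 to 16.2 times in T cells, whose Spp1 was at 51.0 CPM ± 16.3. The share of epithelial cells with a Spp1 UMI after thinning was 23.1%, 23.9%, 37.3% and 2.54% in replicates 1 to 4, and in Cre+ replicate 4 it was below the 6.30% of T cells, although 4 epithelial cells held 65.1% of the epithelial Spp1 UMIs of that library.

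Epithelial Spp1 came from a minority of cells in every tumor. Taking 50 Spp1 UMIs per 10000 as a limit, which was chosen after the values were seen, 183 of 2234 (8.19%), 182 of 2321 (7.84%), 285 of 1996 (14.3%) and 4 of 2479 (0.161%) epithelial cells of replicates 1 to 4 reached it. Among macrophages 97 (10.4%), 41 (2.71%), 133 (8.01%) and 34 (1.61%) reached it, and 0 T cells did in any library. The 10% of epithelial cells with most Spp1 held 87.2%, 79.6%, 72.7% and 98.1% of the epithelial Spp1 UMIs. Epithelial cells held 36.1%, 43.2%, 69.7% and 5.71% of all Spp1 UMIs of replicates 1 to 4, macrophages 35.1%, 30.1%, 16.0% and 73.2%, and fibroblasts 2.23% to 7.97%. A sum of Spp1 over the kept barcodes of a library was thus mostly epithelial in Cre- replicate 3 and mostly from macrophages in Cre+ replicate 4. These shares depend on the sort and on the barcode limits and are not those of a whole tumor.

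A further 18.6%, 23.1%, 10.4% and 6.25% of Spp1 UMIs lay in barcodes that passed no gate and had little Lyz2. In replicates 1, 2 and 3 they came from 30, 17 and 31 barcodes with Spp1 at 50181, 53550 and 33254 CPM. These barcodes carried Ecrg4 at 5403, 6279 and 3357 CPM, compared with 38.7, 60.2 and 24.8 CPM in the other barcodes of each library, and also Igfbp2, Sparcl1, Cryab, Sfrp1, Dmp1 and Acta2, the smooth muscle actin. Acta2 was at 2430, 1080 and 4173 CPM, while Ptprc, the pan-leukocyte gene, was at 1.19 to 13.1 CPM. The keratin genes Krt14 and Krt5 were looked up beside Acta2. Krt14 was at 39.4, 28.3 and 4.45 CPM, compared with 29.1, 44.0 and 36.2 CPM in the other barcodes. Krt5 was at 80.1, 6.53 and 28.9 CPM, compared with 2.90, 1.19 and 3.68 CPM. Gpnmb was at 1.19, 104 and 112 CPM in these barcodes of replicates 1, 2 and 3, compared with 37.3, 32.2 and 8.52 CPM in the others. Trem2 was at 14.3, 82.7 and 22.3 CPM, compared with 88.4, 111 and 131 CPM. Apoe was at 607, 1360 and 1254 CPM, compared with 2762, 6743 and 5092 CPM. The 6 such barcodes of Cre+ replicate 4 had no Ecrg4 UMI. No cell type is given to them, since their genes were not in a marker list.

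**Figure D5:**
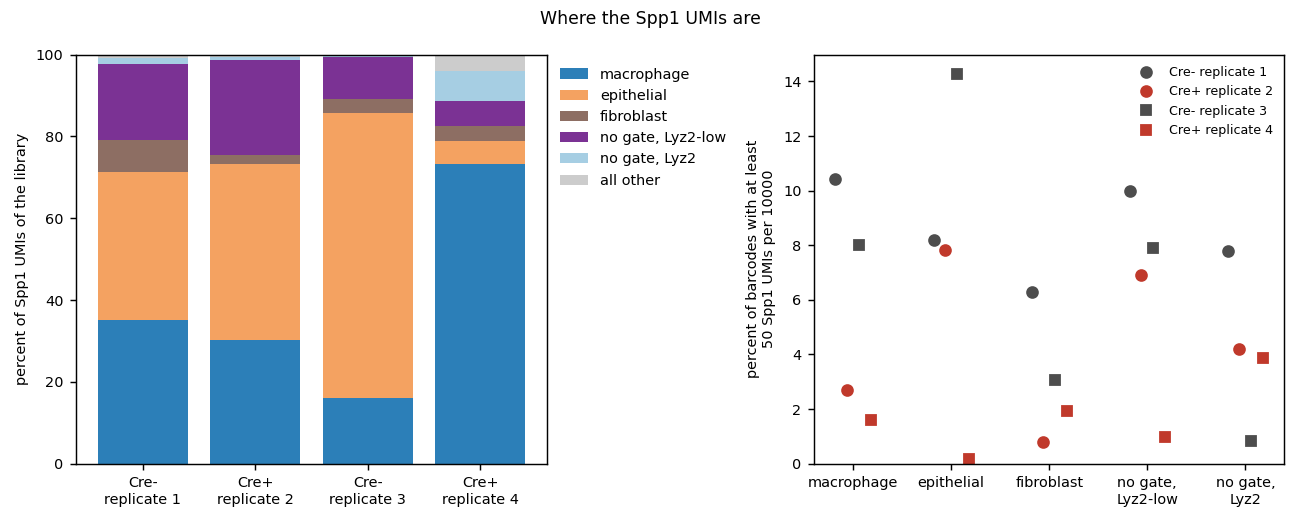
Left, share of the Spp1 UMIs of each library by group of barcodes, in percent. Right, percent of the barcodes of a group with at least 50 Spp1 UMIs per 10000, with 1 point per tumor. Epithelial cells hold 69.7% of Spp1 UMIs in Cre- replicate 3 and 5.71% in Cre+ replicate 4, where macrophages hold 73.2%.

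Within epithelial cells Spp1, Fabp5, Cd9 and Lgals3 were weakly correlated. Spp1 had a mean r over cells of 0.00 with Fabp5, 0.08 with Cd9 and 0.11 with Lgals3, and Fabp5 with Lgals3 was at -0.20 (-0.31 to -0.05 over libraries), as description. Genes most like epithelial Spp1, among 9128, were Igfbp5 (mean r 0.35), Sparcl1 (0.34), Pmepa1 (0.30), Itm2b (0.27) and Cp (0.26). Those most like Fabp5 began with Fdps (0.44), an enzyme of sterol synthesis, those most like Cd9 with Epcam (0.56), an epithelial adhesion molecule, and those most like Lgals3 with S100a6 (0.53), Anxa1 (0.48) and Krt7 (0.46). None of these genes was in the lists given above for Trem2, Gpnmb and Spp1 in macrophages, while Itm2b was among the 5 genes most like Apoe there (mean r 0.54). These are short lists out of 9128 and 7801 genes chosen by detection in different cells, so the lack of shared names is not read as a difference.

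In epithelial cells edgeR called none of 16204 genes between the genotypes (375 at an unadjusted p under 0.05, and 59 by DESeq2). Both Cre+ tumors lay below both Cre- tumors for Spp1 and Ctsb (15.6% of all genes did) and above them for Trem2 and Apoe (12.2% of all genes did). Epithelial Trem2 was at only 1.66 to 2.91 CPM. Among epithelial barcodes with little C1q, the genotypes overlapped for Trem2 and stayed apart for Apoe, Spp1 and Ctsb. Frmd8 had a log2 fold change of -1.47 in epithelial cells (SE 0.43, adjusted p = 1.00 by edgeR) and of -0.52 in macrophages (SE 0.19, adjusted p = 1.00 by edgeR). The value in macrophages ran from -0.68 to -0.40 over the alternatives and passed the test without Cre+ replicate 2 (-0.68, adjusted p = 0.0341 by edgeR). Epithelial Spp1 stood at -2.31 (SE 1.50), Fabp5 at -1.27 (SE 0.83), Ctsb at -0.65 (SE 0.25), Lgals3 at 0.65 (SE 0.86) and Cd9 at 0.01 (SE 0.34). Apoe stood at 0.97 (SE 0.24, adjusted p = 1.00 by edgeR), from 52.4 and 66.0 CPM in Cre- replicates 1 and 3 to 136 and 89.5 CPM in Cre+ replicates 2 and 4, and these levels were 1.31 to 2.03 times what C1q would carry. Whether the genotype difference was unlike in macrophages and epithelial cells was tested as an interaction, and edgeR called none of 16807 genes (228 at an unadjusted p under 0.05, 4 by DESeq2). The interaction was 0.48 (SE 1.84) for Spp1, 0.14 (SE 1.00) for Fabp5, -0.53 (SE 0.45) for Cd9 and -0.76 (SE 0.30, adjusted p = 1.00 by edgeR) for Trem2, so with these errors neither a like nor an unlike difference was shown for Spp1.

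Genes that work with the 10 were taken from a list by role, 52 in all, and 44 were higher and 2 lower in macrophages than in epithelial cells, where 29.1% of all genes were higher and 29.4% lower. Their median log2 difference was 3.11 (all genes -0.04). The list was chosen with earlier results of these data known and holds macrophage genes such as Cd68, a check gene above. Higher levels in macrophages were therefore likely from the choice, and the counts by role are description and no test. Both partners of TREM2 were higher, Tyrobp by 7.48 (SE 0.61) and Syk, its kinase, by 6.70 (SE 0.36). All 5 uptake receptors were higher, with the scavenger receptor Msr1 at 7.96, the integrin Itgax at 7.57, the fatty acid receptor Cd36 at 7.48 and Axl, which binds dying cells, at 7.34. Of 14 genes of lipid handling 13 were higher, among them Pltp at 7.28, Apoc2 at 7.26, lipoprotein lipase (Lpl) at 6.15 and the lipid-sensing regulator Pparg at 4.97. Apoc1 was the exception at -1.82 (SE 0.77, adjusted p = 0.0547 by edgeR). All 13 lysosomal genes were higher, with Ctss at 8.12, Lgmn at 6.41 and Cd68 at 6.31.

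Among regulators, 4 of 6 were higher in macrophages than in epithelial cells, where 29.1% of all genes were. These 4 were the members of the MITF and TFEB family: Tfec at 7.83, Mitf at 3.81, Tfeb at 1.32 and Tfe3 at 1.26. Bhlhe40 (-0.73, SE 0.32) and Bhlhe41 (0.56, SE 0.34) did not pass the test. Of 12 receptors and binding partners of SPP1, APOE and LGALS3, 7 were higher in macrophages (29.1% of all genes were) and 2 lower (29.4% of all genes were). The higher ones were led by the APOE receptor Lrp1 (5.51) and the integrin chains Itga9 (3.64) and Itgb5 (3.41). The lipoprotein receptor Vldlr (-2.87, SE 0.38) and the integrin chain Itgb3 (-2.12, SE 0.67) were lower in macrophages, and 3 genes, among them Sdc4 and Lrp8, did not pass. Cd44, the SPP1 receptor, was higher by 1.57 (SE 0.35). Between genotypes in macrophages none of the 52 genes was called by edgeR, and 1 (Cd44, -0.61, SE 0.23) had an unadjusted p under 0.05.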

How the data were processed

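Mammary tumors of 4 mice were profiled with a 10x Genomics 3′ kit, 1 library per mouse, after fluorescence-activated sorting. Cell Ranger output was deposited as raw UMI counts, per the file headers version 6.1.2 for replicates 1 to 3 (called cells, at least 500 UMIs) and Cell Ranger 4 for replicate 4 (all barcodes), without normalization. The submitters' notes name hg38 although the genes have mouse identifiers, so the build of the counts is unsure and no coordinate was taken from the files.

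Barcodes with at least 2000 UMIs and at most 20% mitochondrial UMIs were kept, and doublets were not removed. Outside macrophages (C1q at least 10 per 10000 UMIs), classes were barcodes passing exactly 1 gate per 10000 UMIs: Epcam, Krt8 and Krt18 at 10 (epithelial), Col1a1, Col1a2 and Col3a1 at 30 (fibroblasts), Pecam1, Cdh5 and Emcn at 5 (endothelial), Cd3d, Cd3e and Cd3g at 5 (T cells), S100a8 and S100a9 at 50 (granulocytes) and Cd79a, Cd79b and Ms4a1 at 10 (B cells, not tested). The check markers were highest in their own class except Krt7 of epithelial cells in Cre+ replicate 4 and Cd2 of T cells in both Cre+ libraries.

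Counts were summed per library and class and tested with edgeR 4.0.16 (quasi-likelihood, TMM, filterByExpr) in R 4.3.3, calling adjusted p-values (Benjamini-Hochberg, across every gene of the fit) under 0.05. The fit was repeated with DESeq2 1.42.0. Shares were compared by exact permutation, and thinning drew 2000 UMIs per barcode with a fixed seed. The level that C1q would carry in a class was the macrophage level times the ratio of C1q between class and macrophages, where classes exclude barcodes over the C1q limit by construction. Ranges over 4 mice and their p-values cover the spread between these mice only, and counting intervals cover counting error only.

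The genes and the list of 53 related genes, of which Clec7a was not analysed here, were chosen with earlier results of these data known. Named genes were the 10, up to 4 called related genes per group with the largest change, the 5 genes most correlated with Trem2, Gpnmb and Spp1, Frmd8, and the macrophage state genes Mrc1, Folr2, Lyve1, H2-Aa, H2-Ab1, Cd74 and Mmp12. Bhlhe40, Bhlhe41, Apoc1, Sdc4, Lrp8, Cd44 and the genes listed for epithelial cells and ungated barcodes were named after their values were seen. Some genes of the lists are not reported here. The main fits, the interaction included, had no term for the mouse. Macrophage and epithelial sums of a mouse pair by animal. Their deviations from the mean of each class over all 4 libraries correlated at 0.293 to 0.530 over 13530 genes. These deviations include any genotype difference, so the correlation is not one within a genotype.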

Additional observations from a re-analysis of the deposited data

How the results depend on the processing

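With 2 mice per genotype, the count of genes called between genotypes depended on the method and on single mice. In macrophages it was 0 by edgeR, 7 with every gene that had a count, 20 by DESeq2 and 0 to 2101 leaving out 1 mouse. In epithelial cells it was 0, with 59 by DESeq2 and 0 to 10 leaving out 1 mouse. For the interaction it was 0, with 4 by DESeq2 and 1 with the replicate block (the mouse), which also turned Fabp5 to -0.22. The block gave 8447 calls against epithelial cells, 8428 against fibroblasts, 7571 against endothelial cells, 7402 against T cells and 6070 against granulocytes, within 1.5 times of the fit without it. It changed no other call of the 10 genes than those named for granulocytes. DESeq2 moved the median log2 difference of all genes from -0.04 to -0.16 against epithelial cells and from 0.08 to -0.12 against fibroblasts, and testing every gene with a count moved the former to -0.31.

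Some directions turned, and the cause was not tested. For the genotype in macrophages, upper limits on genes and UMIs put Trem2 at 0.042 and Ctsb at 0.039. Leaving out 1 mouse gave ranges of -0.19 to 0.57 for Apoe, -2.76 to 1.5 for Gpnmb, -0.45 to 0.60 for Lgals3 and -0.37 to 0.091 for Ctsb, with 0.047 for Ctsb without Cre+ replicate 4. In epithelial cells Cd9 was at -0.0015 with at least 10000 UMIs and at -0.0032 with every gene that had a count, and leaving out 1 mouse gave -0.33 to 0.42 for Cd9 (-0.16 without Cre+ replicate 4), -2.04 to 0.39 for Fabp5 and -0.35 to 2.04 for Lgals3 (-0.05 without Cre- replicate 3). The interaction ran from -1.05 to 3.43 for Spp1 and from -1.82 to 1.31 for Fabp5, with -0.32 without Cre+ replicate 2. Against epithelial cells Spp1 was at -0.96 under the upper limits, and Fabp5 was at 0.0033 without macrophages passing another gate, 0.074 with at least 10000 UMIs, 0.34 with the block and -0.48 to 0.86 leaving out 1 mouse (0.12 without Cre+ replicate 4). Against fibroblasts Cd63 was at -0.023 with a higher UMI minimum in replicate 4 and -0.13 by DESeq2. Against granulocytes the upper limits put Gpnmb at -0.066 and Spp1 at -0.81, and leaving out 1 mouse gave -0.23 to 3.34 for Gpnmb and -0.14 to 2.52 for Spp1, both lowest without Cre- replicate 1. The upper limits also ended the calls of Gpnmb (0.29) and Fabp5 (0.99) against fibroblasts. The setting of at least 10000 UMIs left too few granulocytes and was not run for them.

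The number of members called higher in macrophages, leaving out 1 mouse, was 7 against epithelial cells, 5 to 7 against fibroblasts, 8 to 9 against endothelial cells, 10 against T cells and 5 to 8 against granulocytes, and 0 to 1 were lower against endothelial cells. The macrophage share differed by -0.014 to 11.4 points. Of the shares with a UMI, Trem2 was at -2.33 points with at least 10000 UMIs, Ctsb at -0.063 and Ctsd at 0.981 points unthinned, and leaving out 1 mouse gave -4.89 to 0.262 points for Gpnmb, -3.64 to 16.6 for Lgals3 and -1.44 to 2.40 for Ctsb. Cd9 with Ctsb was at 1.00 times the product unthinned and 1.01 times without macrophages passing another gate, and 30 to 36 of the 45 pairs were above the product in all libraries under the alternatives.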
